A study of Macaca mulatta with 12 samples.

Results

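Mitochondrial ribosomal protein genes were followed across the 4 groups of a study of macaque heart cell cultures. Members were all genes of the deposited table whose symbol begins with MRPL or MRPS and a number, which gave 58 of 16745 genes. By symbol, 34 belong to the large subunit (MRPL) and 24 to the small subunit (MRPS). A filter on low values left 55 members for testing, 31 MRPL and 24 MRPS, among 12084 genes tested in all. The other 3 members, MRPL17, MRPL35 and MRPL36, were listed with 0 reads in all 12 libraries, which allows up to 3 reads of the 4154346 in the library with the fewest reads, a bound on counting error alone.

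The mitochondrial ribosome, or mitoribosome, is the particle inside mitochondria that translates the few messages encoded by mitochondrial DNA, all of which are membrane subunits of the respiratory chain and ATP synthase. Its RNA comes from mitochondrial DNA, whereas its proteins are encoded in the nucleus, made in the cytosol and imported. Some of these proteins descend from bacterial ribosomal proteins, and others were acquired later and are found in mitochondria alone. Heart muscle depends on mitochondrial respiration, and inherited faults in several of these genes cause cardiomyopathy. The deposited table has no row under symbols such as MRPL1, MRPL14 and MRPS22, so the members are not the whole particle. Among the members, 34 are of the bacterial type (31 tested) and 23 are mitochondria-specific. The remaining member, MRPS36, is now described as a subunit of the 2-oxoglutarate dehydrogenase complex rather than of the mitoribosome. The symbols of MRPS30 and MRPS18A name the small subunit, but structures place both proteins in the large one.

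The cultures carry the label of cardiomyocytes, differentiated from induced pluripotent stem cells of the rhesus macaque, and were grown in RPMI medium with B27 supplement and insulin. They were kept as a flat monolayer (2D) or as engineered heart tissue (EHT, 3D), in normoxia or in hypoxia, with 3 libraries in each of the 4 groups. Hypoxia was an anaerobic pouch for 24 hours, followed by a change of medium and 24 hours more. The labels do not say when RNA was taken, so oxygen and the medium change cannot be told apart. They also do not say whether replicates were separate differentiations, so the p-values measure the spread between these libraries, which may be technical.

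Recovered totals ran from 4154346 to 11298841 reads per library. Markers of cardiomyocytes, 10 genes such as the troponins and MYH6, summed to 0.0483 to 0.355% of reads in monolayer normoxia and 0.545 to 0.603% in monolayer hypoxia. In EHT they summed to 0.00166 to 0.0175% in normoxia and 0.00290 to 0.0797% in hypoxia, although each of the 10 had a read in every group. In EHT, 8 of the 10 were lower than in monolayer in both oxygen conditions, so the cell type on the label is weakly marked in EHT. Markers of epithelium summed to 0.183 to 0.913% in monolayer normoxia and stayed at or under 0.0168% elsewhere, with CLDN6 and ESRP1 at 0 reads in EHT normoxia. Fibroblast markers took 3.33 to 7.04% in all 12 libraries. The 6 smooth muscle markers took 0.180 to 0.413% in monolayer normoxia, 0.540 to 0.647% in monolayer hypoxia, 0.207 to 0.297% in EHT normoxia and 0.134 to 0.146% in EHT hypoxia. The 6 epicardial markers took 0.0165 to 0.0210% in monolayer normoxia and at most 0.00831% in the other groups. The 6 endothelial markers took 0.0204 to 0.0444% in monolayer normoxia and 0.0198 to 0.0232% in monolayer hypoxia. In EHT they took 0.00366 to 0.00689% in normoxia and 0.00231 to 0.0106% in hypoxia. Cell cycle genes took 0.122 to 0.174% in monolayer normoxia and 0.0269 to 0.0666% in the other groups. The part of these markers in the results for the members was not tested. All 17 of the hypoxia-inducible genes that could be tested were higher in hypoxia in both cultures, with median log2 differences of 2.53 in monolayer and 3.32 in EHT.

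As a share of all reads, the 58 members together took less of the RNA in hypoxia than in normoxia in both cultures. Their share was 0.230, 0.256 and 0.263% in the 3 monolayer normoxia libraries and 0.184, 0.185 and 0.175% in monolayer hypoxia. In EHT it was 0.219, 0.207 and 0.246% in normoxia and 0.193, 0.171 and 0.156% in hypoxia. In neither culture did the ranges of normoxia and hypoxia overlap, and the 2 normoxia groups overlapped each other. The means were 0.250% ± 0.0174 and 0.182% ± 0.00558 in monolayer and 0.224% ± 0.0203 and 0.173% ± 0.0183 in EHT, in normoxia and hypoxia in turn (SD, n = 3). These shares are a description and were not tested.

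The 100 genes with the most reads took 23.9% of reads in monolayer normoxia, 39.5% in monolayer hypoxia, 32.2% in EHT normoxia and 36.4% in EHT hypoxia. With those 100 genes left out of the denominator, the members took 0.328% ± 0.0259 in monolayer normoxia and 0.300% ± 0.0105 in monolayer hypoxia, and these ranges overlapped. In EHT the same share was 0.330% ± 0.0129 in normoxia and 0.272% ± 0.0239 in hypoxia, without overlap. The gap in monolayer was thus smaller with this denominator, and in EHT the groups stayed apart. By class, bacterial-type members took 0.132% of all reads in monolayer normoxia and 0.0841% in monolayer hypoxia, and mitochondria-specific members took 0.117% and 0.0973%. In EHT the bacterial-type share was 0.122% in normoxia and 0.0823% in hypoxia, against 0.102% and 0.0907% for the mitochondria-specific class. Outside the 100 genes with the most reads, the mitochondria-specific share was instead 0.154% ± 0.0136 in monolayer normoxia and 0.161% ± 0.00640 in monolayer hypoxia, with overlap, and 0.15% ± 0.00497 and 0.142% ± 0.0137 in EHT, also with overlap. The bacterial-type share with that denominator was 0.173% ± 0.0129 and 0.139% ± 0.00410 in monolayer and 0.180% ± 0.00805 and 0.129% ± 0.0106 in EHT, in both cases lower in every hypoxia library than in any normoxia library (SD, n = 3). In bulk cultures, fewer cells of a type and less RNA per cell cannot be told apart.

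**Figure D1:**
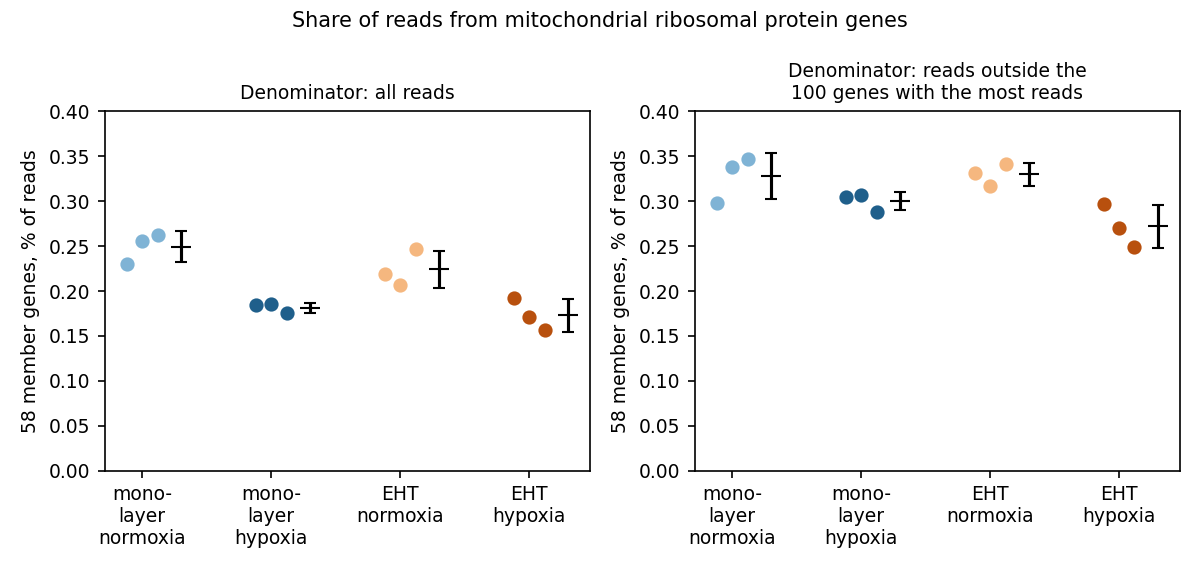
Percentage of reads taken by the 58 member genes, with 1 point per library, and the mean with its SD (n = 3) beside each group; the left panel divides by all reads and the right panel by reads outside the 100 genes with the most reads. With all reads as the denominator, the monolayer hypoxia libraries lie between 0.175 and 0.185% and the monolayer normoxia libraries between 0.230 and 0.263%.

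Single members were compared on the deposited log2 values after subtracting each library's median over the 12084 genes tested, called the centred level here. A centred level of 0 is that of the median gene of the library, so a log2 difference says how a member moved relative to that median and not relative to total RNA. The library medians ran from 6.98 to 8.75 before centring. The highest was that of monolayer normoxia replicate 3, with replicates 1 and 2 of that group at 7.41 and 7.63. Centring added 0.74 to the difference between EHT and monolayer in normoxia and 0.55 to that between hypoxia and normoxia in monolayer. It added 0.04 to the culture difference in hypoxia, -0.15 to the hypoxia difference in EHT and -0.70 to the interaction. A member was called when the adjusted p of limma's moderated test, over all 12084 genes, was under 0.05. Standard errors of members ran from 0.117 to 0.496 log2 units for comparisons of groups, with a median of 0.183.

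In monolayer, members were called in both directions between hypoxia and normoxia. Of 55 members, 16 were higher (29.1%) and 7 were lower (12.7%), where 27.8% of all genes tested were called higher and 18.6% lower. The median difference was 0.04, against 0.07 over all genes. It was -0.51 without centring, where the median of all genes was -0.48, and -0.06 by voom on the recovered reads. Members higher in hypoxia were led by MRPS30, MRPS18B, MRPS24 and MRPL44, and those lower by MRPS28 and MRPL20.

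MRPS30, a mitochondria-specific protein of the large subunit, had centred levels of 1.51, 1.36 and 1.61 in monolayer normoxia and 2.79, 2.98 and 2.93 in monolayer hypoxia. Every hypoxia library lay above every normoxia library, and the log2 difference was 1.40 ± 0.22 (SE), 2.64-fold (limma, adjusted p = 0.000269). MRPS18B, 1 of 3 paralogues of bacterial protein S18, rose from 0.53, 1.19 and 0.68 to 1.83, 1.89 and 1.96. Its difference was 1.10 ± 0.18, 2.14-fold (limma, adjusted p = 0.000323). MRPS24, the counterpart of bacterial S3 at the messenger entry channel, rose from -0.23, 0.32 and 0.18 to 1.04, 1.31 and 0.69. The groups did not overlap and the difference was 0.93 ± 0.19 (limma, adjusted p = 0.00159). MRPL44, a large-subunit protein with an RNase III-like fold, rose from -0.09, 0.16 and 0.24 to 0.92, 1.06 and 0.77, by 0.81 ± 0.16 (limma, adjusted p = 0.00132).

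MRPL39 and MRPL43, both mitochondria-specific and in the large subunit, were higher in monolayer hypoxia by 0.79 ± 0.16 and 0.74 ± 0.13 (limma, adjusted p = 0.00174 and 0.000448). MRPL37, another of that class, went from 1.69, 1.85 and 2.07 to 2.60, 2.75 and 2.37, a rise of 0.71 ± 0.19 (limma, adjusted p = 0.00868). MRPL10, the anchor of the stalk that recruits translation factors, went from 0.64, 1.16 and 1.01 to 1.5, 1.78 and 1.53. It rose by 0.67 ± 0.16 (limma, adjusted p = 0.00442). MRPL21 rose by 0.62 and MRPL51 by 0.41. The remaining members called higher were MRPL3, MRPL11, MRPL55, MRPS9, MRPS18A and MRPS26, at 0.35 to 0.79. Each of these 6 lost its call in at least 1 fit that left out a single library, with adjusted p from 0.0509 to 0.168 there (limma).

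MRPS28, the counterpart of bacterial S1 in the small subunit, had centred levels of -0.79, -1.04 and -0.81 in monolayer normoxia. In monolayer hypoxia it had -2.32, -2.25 and -2.11, well apart from normoxia. It fell by 1.35 ± 0.24 (limma, adjusted p = 0.000578) on 14 to 184 reads per library over the study. MRPL20, a bacterial-type protein that in bacteria binds early in large-subunit assembly, fell from 0.92, 0.40 and 0.53 to -0.65, -0.24 and -0.27, by 1.0 ± 0.28 (limma, adjusted p = 0.0107). The other 5 members called lower were MRPL4, MRPL19, MRPL46, MRPL50 and MRPL57, with differences of -0.49 to -0.60. None of these 5 kept its call in all 12 fits that left out 1 library, with adjusted p from 0.0518 to 0.156 in the fits that lost it (limma), and MRPL57 overlapped between the groups.

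Over those 12 fits, 12 of the 23 calls held throughout. Without monolayer normoxia replicate 1, 10 members in place of 16 were called higher. Members called lower fell from 7 to 3 without monolayer normoxia replicate 2, to 4 without monolayer hypoxia replicate 1, and to 2 without monolayer normoxia replicate 3 or without monolayer hypoxia replicate 2 or 3. Voom called 13 members higher and 12 lower. The summed cardiomyocyte, smooth muscle, epithelial, epicardial and cell cycle markers also separated these groups without overlap, and their part was not tested.

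In EHT, more members were called lower in hypoxia than higher. Of 55 members, 16 were lower (29.1%) and 3 were higher (5.45%), where 16% of all genes tested were called lower and 19.5% higher. The median was -0.20, against 0.03 over all genes. It stayed negative without centring, at -0.04 with all genes at 0.18, and by voom, at -0.28. The members called lower with the largest differences were MRPS12, MRPL19 and MRPL20, each by more than 3-fold, and MRPS30, MRPS18B and MRPL10 were the 3 called higher.

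MRPS12, the bacterial-type protein at the decoding centre, had centred levels of 1.38, 1.30 and 1.34 in EHT normoxia and -0.74, -1.08 and 0.08 in EHT hypoxia. The normoxia libraries lay close together and all hypoxia libraries lay below them, with replicate 3 nearest. It fell by 1.92 ± 0.25, 3.78-fold (limma, adjusted p = 0.00011). MRPL19, a bacterial-type protein at the subunit interface, fell from 0.81, 0.40 and 0.80 to -0.99, -1.43 and -0.88. The decrease was -1.76 ± 0.20, 3.40-fold (limma, adjusted p = 4.13e-05). MRPL20 went from 1.54, 1.38 and 1.77 to -0.57, -0.57 and 0.58, a difference of -1.75 ± 0.28, 3.37-fold (limma, adjusted p = 0.000443). Replicate 3 of EHT hypoxia was again the library closest to normoxia.

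MRPL15, a bacterial-type large-subunit protein, went from 0.74, 0.47 and 0.59 to -0.32, -0.57 and -0.53, a difference of -1.08 ± 0.16 (limma, adjusted p = 0.000313). MRPL28 went from 1.45, 1.20 and 1.29 to -0.02, -0.05 and 0.97, a difference of -1.01 ± 0.24 (limma, adjusted p = 0.00651). The groups did not overlap for either gene, although the third EHT hypoxia library of MRPL28 sat just under normoxia. MRPS23, MRPS11, MRPL57, MRPS34 and MRPL12 were lower, at -0.77 to -0.87, and kept their calls in all 12 fits that left out 1 library. MRPL12 is the stalk protein that binds translation factors. MRPL4, MRPL13, MRPL34, MRPL39, MRPL46 and MRPS28 were also called lower, at -0.44 to -1.0, and each lost its call in 1 or more of those fits, with adjusted p from 0.0513 to 0.165 there (limma). For MRPL4 this was the fit without EHT normoxia replicate 1 (adjusted p = 0.0681).

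Among the members called higher in EHT hypoxia, MRPS30 went from 0.43, 0.82 and 0.93 to 2.23, 2.18 and 1.27, a rise of 1.17 ± 0.22, 2.25-fold (limma, adjusted p = 0.00153). MRPS18B went from 0.84, 0.63 and 0.96 to 1.71, 1.79 and 1.36, a rise of 0.81 ± 0.18 (limma, adjusted p = 0.00383). MRPL10 went from 1.09, 1.13 and 0.98 to 1.71, 1.85 and 1.45, a rise of 0.61 ± 0.16 (limma, adjusted p = 0.0107). In all 3 genes every hypoxia library lay above every normoxia library and replicate 3 was the lowest of the hypoxia libraries.

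EHT hypoxia replicate 3 was the library nearest to the EHT normoxia mean in 14 of the 19 members called, against 2 for replicate 1 and 3 for replicate 2. That count covers the members alone and does not show a trait particular to them. Without EHT hypoxia replicate 3, 15 members were called lower and 6 higher. MRPL37 was among the latter at 0.63 (limma, adjusted p = 0.0104), and stood at 0.44 with all libraries (adjusted p = 0.0885). Of the 19 calls, 13 held in all 12 fits that left out 1 library. The summed cardiomyocyte markers also ranged widely within EHT hypoxia, from 0.00290 to 0.0797% of reads, and their part was not tested.

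**Figure D2:**
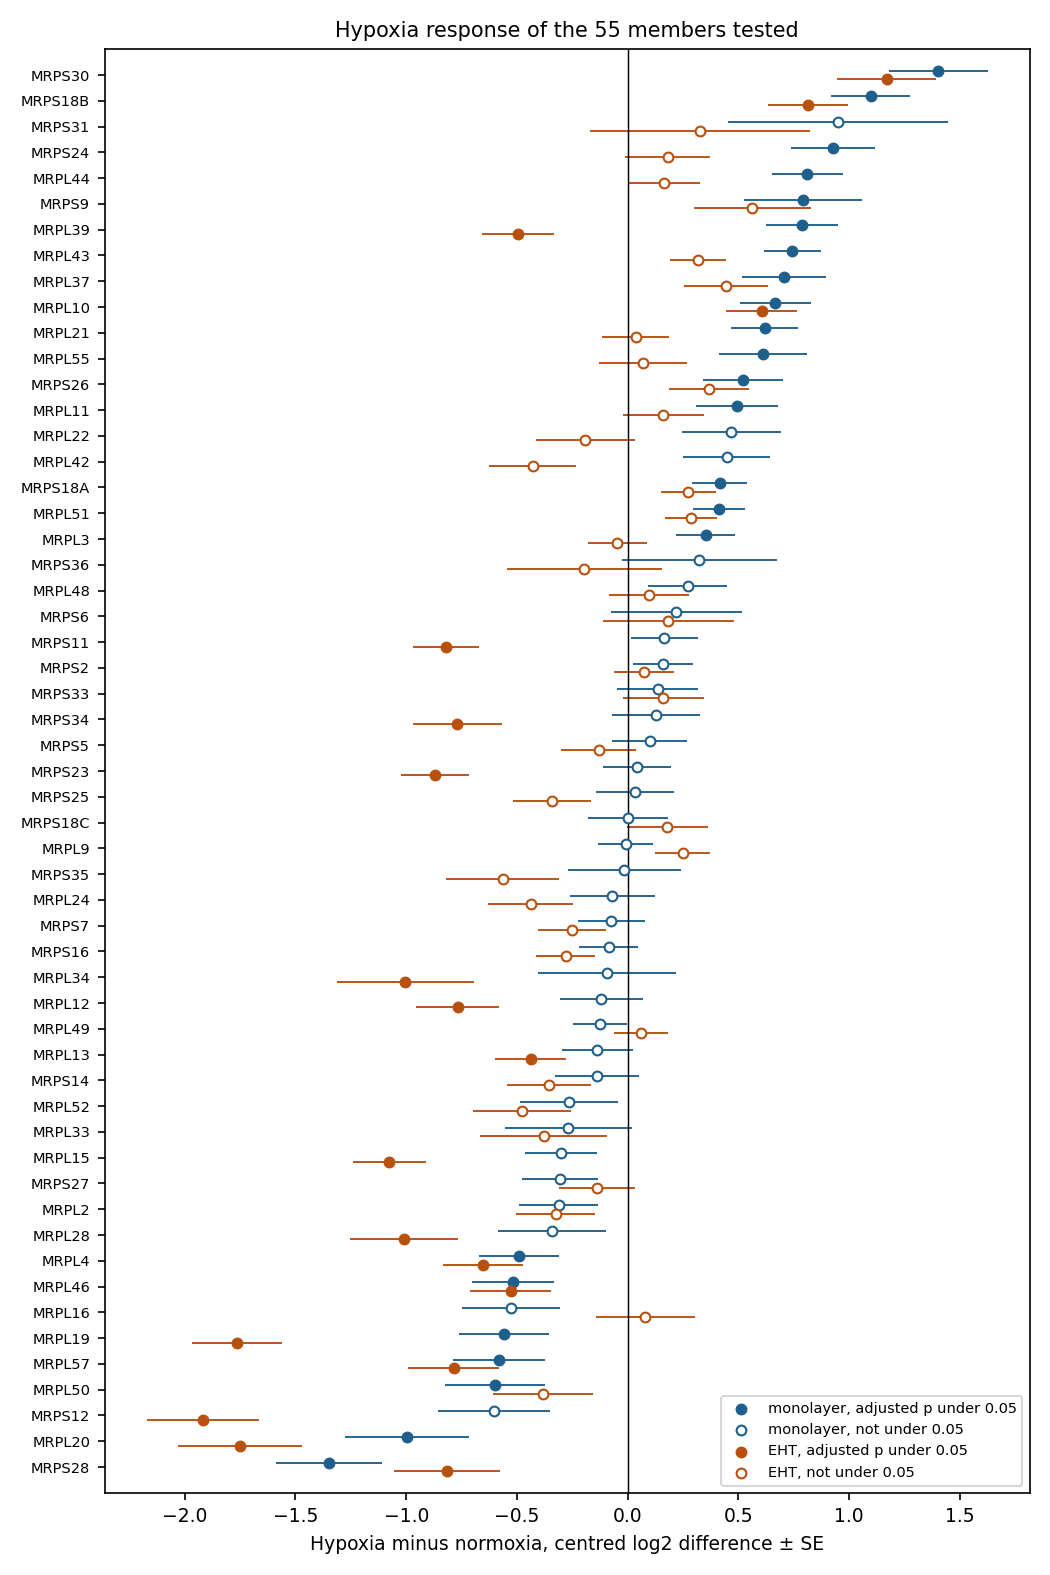
Centred log2 difference between hypoxia and normoxia for the 55 members tested, ordered by the monolayer value, with bars of 1 SE; filled points have an adjusted p under 0.05. MRPS30, MRPS18B and MRPL10 are filled to the right in both cultures, and MRPS28, MRPL20, MRPL57, MRPL19, MRPL46 and MRPL4 are filled to the left in both.

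The hypoxia comparisons in monolayer and EHT use separate libraries, and 9 of the 55 members (16.4%) were called in the same direction in both, against 18.2% of all 12084 genes. MRPL10, MRPS18B and MRPS30 were higher in both (5.45%, against 12% of all genes), and MRPL4, MRPL19, MRPL20, MRPL46, MRPL57 and MRPS28 were lower in both (10.9%, against 6.2%). MRPL39 alone was called in opposite directions, higher in monolayer and lower in EHT. Another 12 (21.8%, against 13.9% of all genes) were called higher in monolayer and not called in EHT, and 9 (16.4%, against 7.83%) were called lower in EHT and not called in monolayer. MRPL50 was called lower in monolayer and not called in EHT (1.82%, against 11.1%), and 23 members (41.8%, against 39.5%) were called in neither. These counts do not show that a member called in 1 culture responded differently in the other, which is the interaction below.

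Across the 55 members, the hypoxia differences in monolayer and EHT had a Pearson r of 0.741 and a Spearman rho of 0.731, and 42 had the same sign. Across all 12084 genes tested the Pearson r was 0.372, and 7756 had the same sign. Without EHT hypoxia replicate 3 the value for the members was 0.743. Genes of 1 library share its depth and scaling and are not independent replicates, so these are descriptions. The spread of the members was narrower than that of all genes, with an SD over genes of 0.54 in monolayer and 0.61 in EHT against 1.0 and 0.83.

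The plot of levels by library shows 9 members that follow these courses. MRPS28, MRPL20 and MRPL57 had lower means in hypoxia than in normoxia of the same culture, and MRPS30, MRPS18B and MRPL10 had higher means. MRPS12 and MRPL19 had their highest levels in EHT normoxia.

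**Figure D3:**
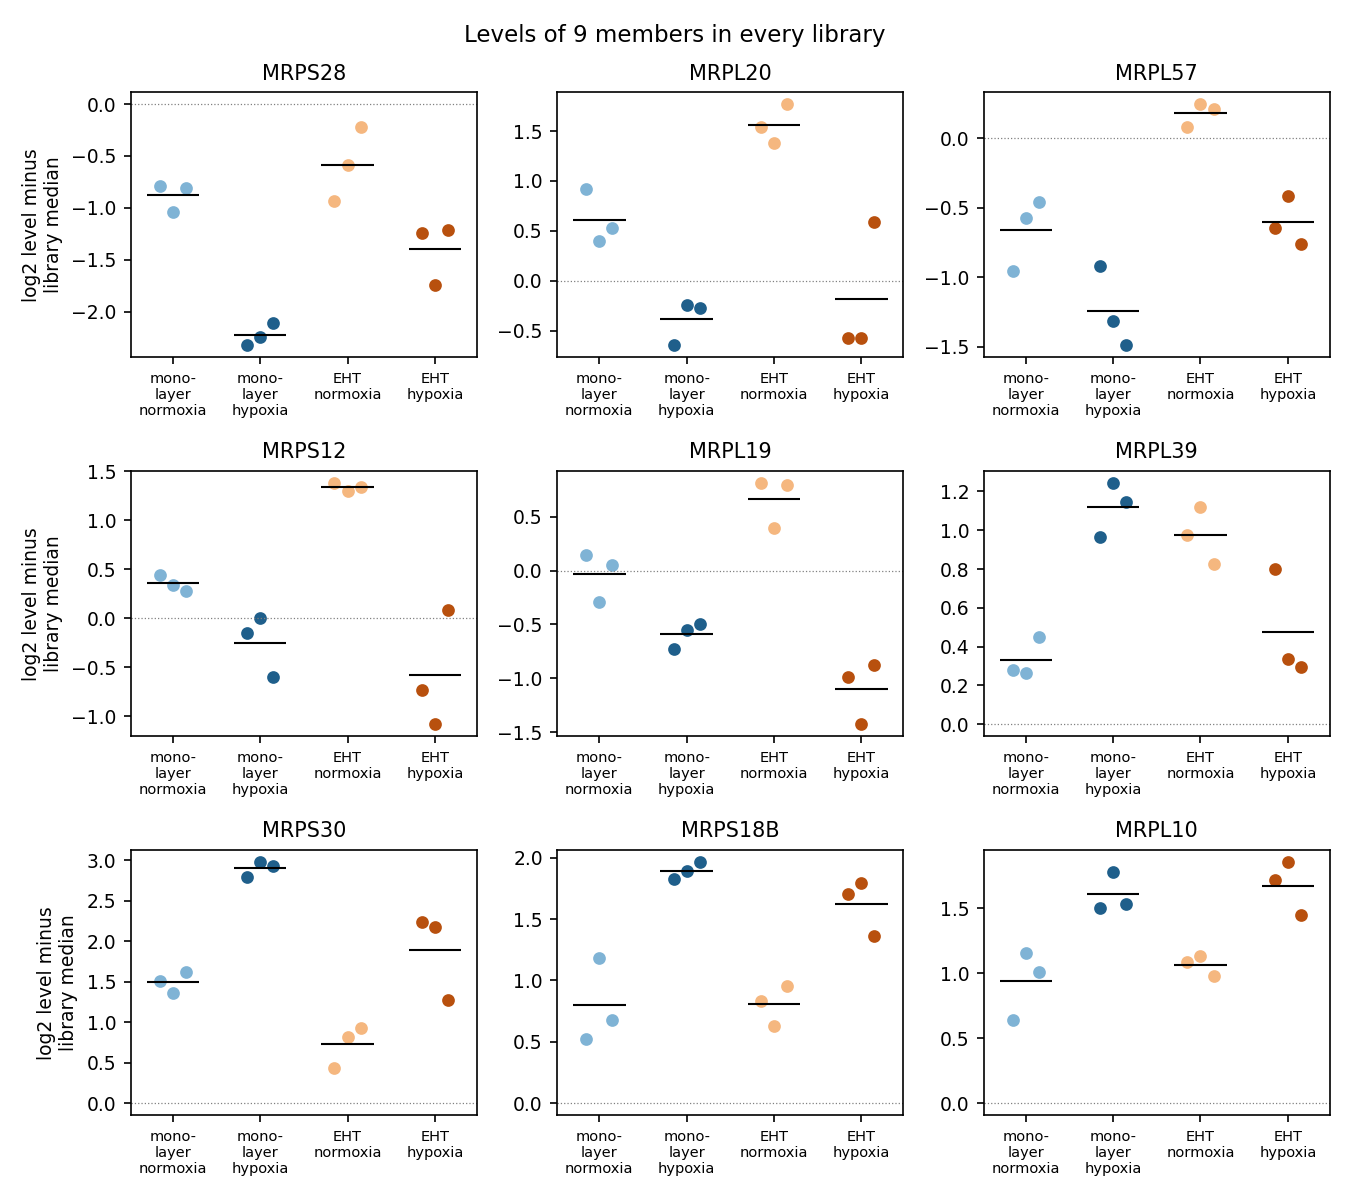
Log2 level minus the library median for 9 members, with 1 point per library and a line at the mean of each group (n = 3); the vertical axes differ between panels and the dotted line marks the median gene. MRPS12 stands at 1.30 to 1.38 in EHT normoxia and at -1.08 to 0.08 in EHT hypoxia, and MRPL39 at 0.96 to 1.24 in monolayer hypoxia and 0.27 to 0.45 in monolayer normoxia.

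Relative to the median gene, members in normoxia were called higher in EHT at close to the share of all genes. They were called lower less often than all genes. Of 55 members, 11 were higher (20.0%) and 2 were lower (3.64%), where 22.8% of all genes tested were called higher and 18.5% lower. A positive difference was found in 44 of 55 members and also in most of all genes, whose median was 0.07. The median of the members was 0.26. The sign of that median rests on the centring: it was -0.48 on the deposited values, where the median of all genes was -0.66, and 0.16 by voom, where all genes were at -0.08. In either case the members' median lay above that of all genes.

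MRPS12 was higher in EHT by 0.98 ± 0.25 (limma, adjusted p = 0.00785), from 0.44, 0.34 and 0.28 in monolayer normoxia. MRPL57, a mitochondria-specific protein of the large subunit, had -0.95, -0.57 and -0.46 in monolayer normoxia and 0.08, 0.25 and 0.21 in EHT normoxia, a difference of 0.84 ± 0.21 (limma, adjusted p = 0.00601). MRPS16, a bacterial-type small-subunit protein, had 0.49, 0.60 and 0.81 in monolayer and 1.19, 1.31 and 1.34 in EHT, a difference of 0.65 ± 0.13 (limma, adjusted p = 0.0021). MRPS24, MRPL39 and MRPL15 were higher by 0.77, 0.64 and 0.62. These 6 kept their calls in all 12 fits that left out 1 library.

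MRPL34, MRPL20, MRPL19, MRPS34 and MRPS11 were called higher in EHT at 0.51 to 1.05, and each lost its call when any of 2 or 3 libraries of these groups was left out, with adjusted p from 0.0505 to 0.0955 (limma). MRPS30 and MRPS9 were the members called lower, at -0.77 ± 0.22 and -0.85 ± 0.27 (limma, adjusted p = 0.0152 and 0.0219). The call on MRPS30 was lost without replicate 3 of monolayer normoxia (adjusted p = 0.0509) or replicate 1 of EHT normoxia (adjusted p = 0.0703). That on MRPS9 was lost without replicate 3 of monolayer normoxia or replicate 2 or 3 of EHT normoxia (adjusted p = 0.0623 to 0.0881). Without EHT hypoxia replicate 3, which enters this comparison only through the shared estimate of the spread, 20 members were called higher in place of 11. Of the cell cycle genes, 13 of 15 were lower in EHT normoxia than in monolayer normoxia, and their part in the members' differences was not tested.

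In hypoxia, members were called higher in EHT less often than all genes, and called lower at close to the share of all genes. Of 55 members, 4 were higher in EHT (7.27%) and 9 were lower (16.4%), where 18.4% of all genes tested were called higher and 19.7% lower. The median was -0.08, against -0.02 over all genes, and it was also negative without centring (-0.12, with all genes at -0.06) and by voom (-0.14). MRPS9, MRPS30, MRPL39 and MRPL21 were lower in EHT and kept their calls in all 12 fits that left out 1 library.

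MRPS9, a small-subunit protein of the bacterial type, had 2.29, 2.31 and 2.22 in monolayer hypoxia and 1.66, 1.49 and 0.45 in EHT hypoxia, a difference of -1.08 ± 0.27 (limma, adjusted p = 0.00709). MRPS30 differed by -1.0 ± 0.22 (limma, adjusted p = 0.00399). For both genes EHT hypoxia replicate 3 was the lowest library. MRPL39 had 0.96, 1.24 and 1.15 in monolayer hypoxia and 0.80, 0.34 and 0.29 in EHT hypoxia, a difference of -0.64 ± 0.16 (limma, adjusted p = 0.00839). MRPL21 had 0.71, 0.48 and 0.54 and then 0.07, 0.12 and -0.21, a difference of -0.58 ± 0.15 (limma, adjusted p = 0.00926).

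MRPL12, MRPL44, MRPS5, MRPS11 and MRPS23 were also called lower in EHT hypoxia, at -0.46 to -0.64. MRPS28, MRPL57, MRPS27 and MRPS16 were called higher, at 0.45 to 0.83. MRPS28 led these at 0.83 ± 0.24 (limma, adjusted p = 0.0161), and lost its call without monolayer hypoxia replicate 1 (adjusted p = 0.0532). Each of these 9 members lost its call in at least 1 fit that left out a library, with adjusted p up to 0.15 (limma). For MRPS23 this was the fit without monolayer hypoxia replicate 2 (adjusted p = 0.0525), and for MRPL12 those without monolayer hypoxia replicate 1 or EHT hypoxia replicate 2. Without monolayer hypoxia replicate 2 the members called lower were 5 in place of 9, and without any 1 of the 3 monolayer hypoxia libraries those called higher were 2 in place of 4. In the same comparison all 6 smooth muscle markers (median -3.05) and 8 of 10 cardiomyocyte markers (median -4.17) were lower in EHT, and their part was not tested.

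MRPS30 and MRPS9 were called lower in EHT in both oxygen conditions, and MRPL57 and MRPS16 higher in both. MRPL39 and MRPS11 were called higher in EHT in normoxia and lower in hypoxia. Across the 55 members the culture differences in normoxia and hypoxia, which share no library, had a Pearson r of 0.501, against 0.500 over all genes. Without EHT hypoxia replicate 3 the value for members was 0.298, against 0.376 over all genes. In 35 members (63.6%) neither comparison gave a call, against 39.6% of all genes.

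**Figure D4:**
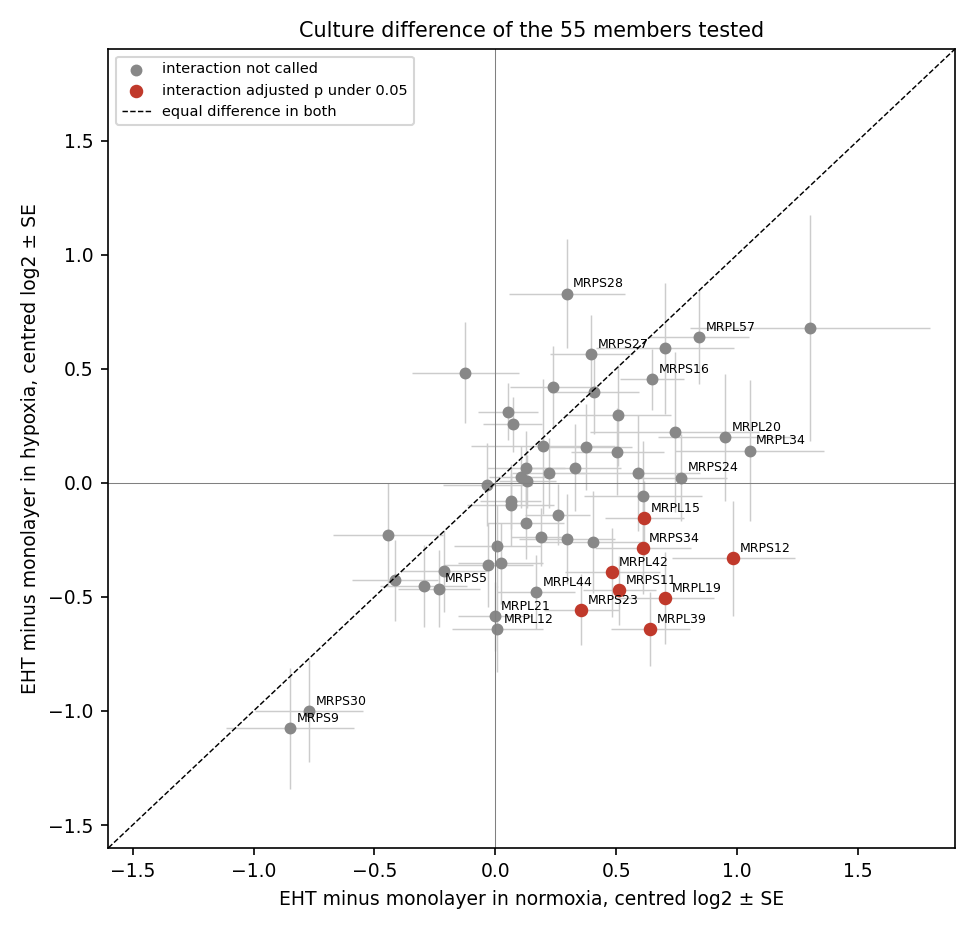
Culture difference (EHT minus monolayer, centred log2) in normoxia (horizontal) and in hypoxia (vertical) for the 55 members tested, with bars of 1 SE; red points have an adjusted p under 0.05 for the interaction and the dashed line marks equal differences. All 8 red points lie below the line, and MRPS30 and MRPS9 lie at the lower left, near it.

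The interaction asks whether the hypoxia response differed between EHT and monolayer. For 8 of 55 members (14.5%) the response was more negative in EHT, and for 0 it was more positive, where 14.1% of all genes tested were called in the first direction and 10.3% in the other. In the positive direction limma found 0 members at an unadjusted p under 0.05, and voom also called 0. A negative value was found in 47 of 55 members and also in most of all genes, whose median was -0.08. The median of the members was -0.26. That direction too rests on the centring: without it the median was 0.44, with all genes at 0.62, and 0 members were called. By voom, on another scaling of the same reads, the median was -0.21, with all genes at 0.06, and 7 members were called.

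MRPL39 had the smallest p. Its centred levels went from 0.28, 0.27 and 0.45 to 0.96, 1.24 and 1.15 with hypoxia in monolayer and from 0.97, 1.12 and 0.82 to 0.80, 0.34 and 0.29 in EHT. The difference between the responses was -1.28 ± 0.23 (limma, adjusted p = 0.00204). Its fall within EHT, -0.50, lost its call without EHT normoxia replicate 1 or 2 or EHT hypoxia replicate 2 or 3 (limma, adjusted p = 0.0715 to 0.117). MRPL19 fell in both cultures, by 0.56 ± 0.20 in monolayer (limma, adjusted p = 0.0382, lost without any monolayer library but normoxia replicate 2) and more in EHT, with a difference of -1.21 ± 0.29 (limma, adjusted p = 0.00925). MRPS11, a small-subunit protein of the bacterial type, stood at 0.72, 0.59 and 0.80 and then 0.69, 1.14 and 0.78 in monolayer, and at 1.18, 1.29 and 1.19 and then 0.30, 0.32 and 0.57 in EHT. Its interaction was -0.98 ± 0.21 (limma, adjusted p = 0.00577).

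MRPS23, a mitochondria-specific small-subunit protein, had 0.98, 0.65 and 1.0 and then 0.91, 1.0 and 0.84 in monolayer, and 1.27, 1.19 and 1.23 and then 0.18, 0.25 and 0.65 in EHT. Its interaction was -0.91 ± 0.22 (limma, adjusted p = 0.00978). MRPL19, MRPL39, MRPS11 and MRPS23 kept their calls in all 12 fits that left out 1 library. MRPS12 had the largest value, -1.32 ± 0.36 (limma, adjusted p = 0.0181), and lost its call without monolayer hypoxia replicate 2 (-1.19, adjusted p = 0.0529). MRPS34, MRPL42 and MRPL15, at -0.90, -0.88 and -0.77, lost theirs in 8, 7 and 6 of the 12 fits, with adjusted p up to 0.095 (limma).

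The count of members called was 5 without replicate 1 of monolayer normoxia, monolayer hypoxia or EHT normoxia, 4 without monolayer hypoxia replicate 2, and 13 without EHT hypoxia replicate 3. In the positive direction the smallest p-values were those of MRPL16 (0.61, adjusted p = 0.183), MRPS28 (0.53, adjusted p = 0.279), MRPL9 (0.26, adjusted p = 0.314) and MRPL49 (0.18, adjusted p = 0.477), by limma. None of these 4 passed the threshold. The count of 8 members is close to the share over all genes.

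The classes of members were set side by side. In monolayer hypoxia, where 27.8% of all genes were called higher and 18.6% lower, 9 of 23 mitochondria-specific members (39.1%) were higher and 3 (13.0%) lower, with a median of 0.27, against 7 higher (22.6%) and 4 lower (12.9%) of 31 bacterial-type members, with a median of -0.07. In EHT hypoxia, where 16% of all genes were called lower and 19.5% higher, 11 of 31 bacterial-type members (35.5%) were lower and 1 (3.23%) higher, with a median of -0.28, against 5 lower (21.7%) and 2 higher (8.70%) of 23 mitochondria-specific members, with a median of 0.06. In that comparison MRPL symbols gave 11 lower and 1 higher of 31, and MRPS symbols gave 5 lower and 2 higher of 24. For EHT against monolayer in normoxia, 8 of 31 bacterial-type members (25.8%) were higher and 1 lower, and 3 of 23 mitochondria-specific members (13.0%) were higher and 1 lower, beside 22.8% and 18.5% of all genes. The difference between the classes was not tested.

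The members include 3 genes of inherited mitochondrial cardiomyopathy, MRPL3, MRPL44 and MRPS14. MRPS22, also chosen as such a gene, has no row in the deposited table. MRPL44 was higher in monolayer hypoxia, as given above, and lower in EHT than in monolayer in hypoxia, at -0.48, a call lost without monolayer hypoxia replicate 1 or 2 or EHT hypoxia replicate 3 (limma, adjusted p = 0.0838 to 0.124). In EHT it went from 0.31, 0.18 and 0.33 to 0.52, 0.62 and 0.17, a difference of 0.16 (limma, adjusted p = 0.468), and its interaction was -0.65 (adjusted p = 0.0566). MRPL3 had 0.35 ± 0.13 in monolayer hypoxia (limma, adjusted p = 0.0472) and lost that call in 9 of the 12 fits that left out 1 library (adjusted p = 0.0516 to 0.156). MRPS14, at -0.14 and -0.36 for hypoxia in monolayer and EHT, was called in no comparison.

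The members include 3 paralogues of bacterial S18, and differences between them were not tested. MRPS18B rose with hypoxia in both cultures. MRPS18A was higher in monolayer hypoxia by 0.42 ± 0.12 (limma, adjusted p = 0.0154), a call lost without monolayer normoxia replicate 1 or monolayer hypoxia replicate 3, and had 0.27 in EHT (adjusted p = 0.108). MRPS18C, which keeps the bacterial type, had 0.00 and 0.18 and was called in no comparison. The sources used here do not give how reads shared with near-identical copies were counted, and values of members with processed copies are uncertain.

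The members with the lowest levels were MRPS31, MRPS36 and MRPL33, with 1 to 39, 3 to 35 and 4 to 35 reads per library. None of them was called. MRPS31 had the largest difference of any member between EHT and monolayer in normoxia, 1.30 ± 0.50 (limma, adjusted p = 0.0515). Its levels were -3.40, -3.80 and -5.09 in monolayer and -3.54, -3.04 and -1.80 in EHT, and they overlapped. MRPL17, with 0 reads in every library, had mean levels of -4.93 and -4.19 in the same groups, through the centring alone. The part of the centring in the difference of MRPS31 was not tested. The members with the highest levels were MRPL37, MRPL43 and MRPS30, with 416 to 1294, 325 to 1158 and 127 to 1513 reads. These levels are not per length of transcript and give no order of abundance between genes. Counting the 4 comparisons of groups, 20 of the 55 members (36.4%) were called in none, 13 (23.6%) in 1, 14 (25.5%) in 2, 5 (9.09%) in 3 and 3 (5.45%) in all 4. Over all genes tested these shares were 22.7%, 18.7%, 38.2%, 15.4% and 5.03%.

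Genes that act with the mitoribosome were read from lists beside the members. Over all genes tested, 27.8% were called higher and 18.6% lower in monolayer hypoxia, and 19.5% and 16% in EHT hypoxia. Of 4 mitoribosomal proteins with other symbols, DAP3, AURKAIP1 and CHCHD1, all of the small subunit, were lower in EHT hypoxia, at -0.79, -0.69 and -0.47, and CHCHD1 was lower in monolayer hypoxia, at -0.81 (limma, adjusted p = 0.00228, 0.00266, 0.0481 and 0.00176). Of 17 mitochondrial translation factors, 5 were higher (29.4%) and 3 lower (17.6%) in monolayer hypoxia, and 3 higher (17.6%) and 2 lower (11.8%) in EHT hypoxia. These shares are near those over all genes. The elongation factor TUFM rose by 0.51 in both cultures (limma, adjusted p = 0.00501 and 0.00746). OXA1L, which inserts the new proteins into the membrane, rose by 0.45 in monolayer, and the initiation factor MTIF3 rose by 0.96 in EHT. The elongation factor TSFM fell by 0.73 in monolayer, and TACO1, an activator of COX1 translation, fell by 0.79 in EHT.

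Of 24 assembly and rRNA modification factors, 3 were higher (12.5%) and 4 lower (16.7%) in monolayer hypoxia, and 4 higher (16.7%) and 4 lower (16.7%) in EHT hypoxia. The helicase DHX30 was lower in both cultures, at -0.74 in monolayer and -0.79 in EHT (limma, adjusted p = 0.00012 and 0.000132), and MTERF3, which acts on the large subunit, was lower at -1.02 and -1.16. The GTPase NOA1 rose by 0.98 in monolayer. Of 17 mitochondrial aminoacyl-tRNA synthetases, 2 were higher (11.8%) and 3 lower (17.6%) in monolayer hypoxia, and 4 higher (23.5%) and 1 lower (5.88%) in EHT hypoxia. IARS2, which charges isoleucine tRNA, rose by 1.12 and 1.83 (limma, adjusted p = 0.000122 and 6.04e-06), and WARS2, for tryptophan, rose by 0.75 and 1.36.

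Of 18 genes of mitochondrial DNA maintenance and transcription, 8 were lower (44.4%) and 1 higher (5.56%) in monolayer hypoxia, with a median of -0.48. In EHT hypoxia 6 were lower (33.3%) and 1 higher (5.56%), with a median of -0.46. ELAC2, which trims tRNA ends, was lower in both, at -1.39 in monolayer and -1.51 in EHT (limma, adjusted p = 7.94e-05 and 7.57e-05), and the polymerase gene POLG fell by 1.47 in monolayer. Among 11 regulators of mitochondrial biogenesis, MXI1, a MYC antagonist induced by hypoxia, rose by 3.47 in monolayer and 3.06 in EHT (limma, adjusted p = 3.82e-07 and 1.76e-06). MYC fell by 0.73 in monolayer (adjusted p = 0.0297) and rose by 1.26 in EHT (adjusted p = 0.00189), with an interaction of 1.99 (adjusted p = 0.00186). The coactivator PPARGC1B rose by 1.45 in monolayer and fell by 1.15 in EHT, with an interaction of -2.60 (limma, adjusted p = 0.00195), and PPARGC1A rose by 2.24 and 1.44. In protein import, 7 of 17 genes (41.2%, against 22.8% of all genes) were higher in EHT than in monolayer in normoxia and the other 10 were not called. Among the 7 was the receptor TOMM22 at 0.88 (limma, adjusted p = 0.00102).

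Cytosolic ribosomal proteins were mostly called higher in hypoxia in both cultures. The hypoxia shares over all genes are those given with the lists above. Of 33 tested, 23 were higher and the other 10 not called in monolayer hypoxia, with a median of 0.61, and 18 were higher and 1 lower in EHT hypoxia, with a median of 0.56. Nuclear-encoded subunits of the respiratory chain, which assemble with the products of the mitoribosome, had 17 higher and 1 lower of 44 tested in monolayer hypoxia, with a median of 0.20. In EHT hypoxia they had 3 higher and 19 lower, with a median of -0.34. As a share of all reads the scale gave other directions in monolayer: the respiratory chain list took 0.626% ± 0.0216 in normoxia and 0.484% ± 0.0187 in hypoxia, and the cytosolic list 3.00% ± 0.503 and 3.01% ± 0.175 (SD, n = 3). In EHT the respiratory chain list took 0.539% ± 0.0471 and 0.370% ± 0.0396, and the cytosolic list 2.22% ± 0.247 and 2.89% ± 0.380, with overlap for the latter. For the interaction 24 of the 44 were lower and 1 was higher, with a median of -0.57, against 8 and 0 of the 55 members, with a median of -0.26. Over all genes tested, 14.1% were called lower for the interaction and 10.3% higher. In EHT hypoxia UQCRQ, of complex III, was lower, at -1.36 ± 0.16, and NDUFS1, of complex I, at -1.29 ± 0.16 (limma, adjusted p = 5.91e-05 and 7.16e-05). No difference between these lists and the members was tested, and all of them rest on the same centring.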

How the data were processed

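RNA was sequenced from 12 macaque cultures with the Ion Total RNA-Seq Kit v2 on the Ion Proton, per the labels' protocols. The submitters' processing notes name HISAT2, featureCounts and DESeq2. The sources used here give no versions, genome build, annotation or handling of strand and of reads with several matches. The deposited table holds variance-stabilised log2 values made by the authors, with a lowest value of 3.00 for 0 reads. Inverting the transformation gave whole reads for all values, within 0.01.

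Tests covered the 12084 genes with a mean at least 1 log2 unit over the table's lowest value. Each library was centred on its median over those genes. In limma 3.58.1 (R 4.3.3), 1 linear model of the 4 group means took in the 12 libraries, with a mean-variance trend. P-values were adjusted by Benjamini-Hochberg over all 12084 genes within each of 5 comparisons, with a threshold of 0.05. The fit was checked on simulated data with the same spread setting for all genes, few changed genes and no unusual library. That is simpler than these data, so the check does not cover the spread between these libraries. Low reads are flattened by the transformation, which understates folds of such genes. Centring then moves the floor between libraries, which can add a difference where reads give none. MRPL17, with 0 reads in all 12 libraries, had mean centred levels of -4.93 in monolayer normoxia and -4.38 in monolayer hypoxia. In EHT its mean levels were -4.19 in normoxia and -4.34 in hypoxia. Precision is limited by 3 libraries per group.

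The members, the gene and marker lists and the naming rule were chosen with earlier results of these data known. The rule took, per comparison and direction, the 6 members called with the largest difference whose groups did not overlap, the 4 smallest p per direction of the interaction, the 3 highest and 3 lowest levels, the cardiomyopathy genes, the S18 paralogues, MRPS36, and up to 3 genes per list and direction. Other members called are named without full statistics. Of the 58 members, 57 matched a symbol of a RefSeq gene list. Alternatives were no centring, voom on recovered reads scaled by median-of-ratios factors, no filter, no variance trend, a replicate block, leaving out libraries, and fits restricted to the groups compared. The share of reads for other lists without the 100 genes with the most reads was chosen after seeing the data. Figures were drawn with matplotlib 3.10.9.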

Additional observations from a re-analysis of the deposited data

Results flagged for a closer look

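For 8 members the hypoxia response differed between EHT and monolayer in the test of the interaction itself (limma, adjusted p under 0.05), each with a more negative response in EHT: MRPS12 (-1.32), MRPL39 (-1.28), MRPL19 (-1.21), MRPS11 (-0.98), MRPS23 (-0.91), MRPS34 (-0.90), MRPL42 (-0.88) and MRPL15 (-0.77). These are 14.5% of the members, close to the 14.1% of all genes called in that direction. Voom called 7 members and the deposited values without centring called 0, with 0 at an unadjusted p under 0.05.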

How the results depend on the processing

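Centring decided most calls. On the deposited values without centring, limma called 0 members higher in each of the 5 comparisons. At an unadjusted p under 0.05 this gave 2 members for hypoxia in EHT and 0 in the others. It called 2 members lower for EHT against monolayer in normoxia, 0 in hypoxia (2 unadjusted), 2 and 3 lower for hypoxia in monolayer and EHT, and 0 lower for the interaction (0 unadjusted). Of 76 calls on members, 7 stayed and 58 lost significance with the same sign. The other 11 lost significance with a change of sign (limma, adjusted p = 0.752 to 0.975). For EHT against monolayer in normoxia the last were MRPL15 (-0.12), MRPL19 (-0.034), MRPL39 (-0.096), MRPS11 (-0.22), MRPS16 (-0.088) and MRPS34 (-0.13). For hypoxia in monolayer they were MRPL3 (-0.20), MRPL11 (-0.057), MRPL51 (-0.14), MRPS18A (-0.13) and MRPS26 (-0.029). Over all genes, higher and lower calls in the order of the comparisons (culture in normoxia and in hypoxia, hypoxia in monolayer and in EHT, interaction) were 2750 and 2234, 2227 and 2375, 3362 and 2253, 2360 and 1932, and 1248 and 1708. Without centring they were 325 and 3099, 607 and 946, 535 and 2410, 858 and 270, and 1147 and 102, and by voom 2554 and 3125, 1859 and 2386, 3150 and 3063, 2157 and 2024, and 1431 and 1565. Voom called 4 members lower for culture in normoxia, 2 higher for culture in hypoxia and 12 lower for hypoxia in monolayer, and kept 68 of the 76 calls. Fits to the compared groups alone called 2 members higher for culture in hypoxia and 10 lower for hypoxia in EHT. Without both EHT libraries numbered 3, 7 members were called higher for hypoxia in EHT. Leaving out 1 library at a time gave 8 to 20 members higher and 0 to 2 lower for culture in normoxia, 2 to 4 and 5 to 10 for culture in hypoxia, 10 to 16 and 2 to 9 for hypoxia in monolayer, 3 to 6 and 11 to 16 for hypoxia in EHT, and 0 and 4 to 13 for the interaction. The causes of these changes were not tested. Shares of reads outside the 100 genes with the most reads were 0.328, 0.300, 0.330 and 0.272% in monolayer normoxia, monolayer hypoxia, EHT normoxia and EHT hypoxia. Without a filter 70 of the 76 calls held, and without a variance trend 71. The description of promoter motifs was not run, since promoter sequences were not used here.

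With the replicate number as a block, 68 of the 76 calls held, and members called lower for hypoxia in monolayer were 4 in place of 7. Same-numbered libraries correlated at -0.06 to 0.33 after subtracting group means. Most correlated best with their own number, among them replicates 2 and 3 of EHT across oxygen (0.33 and 0.27), and some did not. Whether same-numbered libraries were made together was not tested, and the main fit used no pairing.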
